A study of Mus musculus with 5 samples.

Results

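Small nucleolar RNAs (snoRNAs) and small Cajal body RNAs (scaRNAs) were examined in LPS-stimulated bone marrow-derived macrophages (BMMs) cultured with or without Sema3G. Members were all rows of the gene table whose symbol begins with Snord, Snora or Scarna followed by a digit, which gave 119 of 24419 rows. They comprised 74 box C/D snoRNAs (Snord), 36 box H/ACA snoRNAs (Snora) and 9 scaRNAs (Scarna). BMMs were grown from bone marrow of C57BL/6 mice for 5 days in 50 ng/ml M-CSF and activated with 100 ng/ml LPS. The activated cells were then kept for 18 h with PBS (2 samples) or with 100 ng/ml Sema3G (3 samples), so that LPS was common to both groups. The Sema3G was a recombinant Fc-tagged protein purified from transfected cells, and the control received PBS rather than an Fc protein. The sources used here give neither the age of the mice nor whether the samples were separate cultures, so p-values measure the spread between these samples, which may be technical.

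Both kinds of snoRNA are short guides that base-pair with other RNAs, chiefly ribosomal RNA, and direct a protein partner to the base to be modified. Box C/D RNAs guide ribose methylation by fibrillarin, and box H/ACA RNAs guide pseudouridylation by dyskerin. The scaRNAs do the same for spliceosomal RNAs in Cajal bodies. In mammals most of them are cut out of introns of a host gene, and the mature RNAs carry no poly(A) tail. The libraries used here were primed on poly(A) and count RNA molecules by unique molecular identifiers (UMIs), so the values below are what such a library captures of these RNAs and not their total amount in the cell. In bulk samples, fewer cells and less RNA per cell cannot be told apart.

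The sequences of 4 of the 5 most abundant members are shown, since these carry nearly all UMIs of the set. They are the GENCODE M21 transcripts on GRCm38, the assembly also called mm10. In the 3 box C/D RNAs, capitals mark the first TGATGA, the core of the C box, and the last CTGA, the D box, which are the motifs bound by the core proteins.
Snord89: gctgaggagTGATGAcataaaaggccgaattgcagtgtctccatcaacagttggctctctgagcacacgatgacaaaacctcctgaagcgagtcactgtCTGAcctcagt
Snord104: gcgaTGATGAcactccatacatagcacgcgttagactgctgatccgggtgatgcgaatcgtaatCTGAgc
Snord49b: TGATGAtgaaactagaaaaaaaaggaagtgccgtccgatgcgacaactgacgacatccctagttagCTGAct
In the box H/ACA RNA Snora81, capitals mark its longest runs of A, the base that the priming of these libraries reads.
Snora81: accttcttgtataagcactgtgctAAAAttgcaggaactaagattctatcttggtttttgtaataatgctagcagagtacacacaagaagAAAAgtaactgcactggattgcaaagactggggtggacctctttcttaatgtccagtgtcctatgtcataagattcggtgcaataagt

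Snord89 lies on the minus strand at chr1:39548745-39548854, between exons of the processed transcript Gm15832 on the same strand, and Gm15832 itself was not analysed here. Snora81 lies on the plus strand at chr16:23110756-23110933 inside Eif4a2, which encodes a translation initiation helicase, and overlaps an exon of retained-intron transcripts of that gene. Snord49b lies at chr11:62603079-62603150 in an intron of the noncoding host 2410006H16Rik. Snord104 lies at chr11:106500993-106501062, and no gene longer than a small RNA contains it in the annotation. The longest run of A was 4 in Snord89 and Snora81, 2 in Snord104 and 8 in Snord49b. In the 100 bases after Snora81 in the retained-intron transcript, the longest run of A was 3. Of the 73 box C/D members with a GENCODE entry, 50 (68.5%) held both TGATGA and CTGA on the transcribed strand, the strand searched, and 0 of the 36 H/ACA members held both. The motifs share bases where TGATGA follows a C directly. Alone, the shorter CTGA was in all 73 C/D and in 19 H/ACA members. Of the 36 H/ACA members, 34 (94.4%) held ACA in the last 8 bases of the annotated transcript, where this class carries its 3′ motif, as did 6 of the 73 C/D members. Snora81 was 1 of the exceptions, as its annotated transcript does not end at that motif.

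Few members were seen at all. Library totals lay between 1798469 and 2215855 UMIs, so that 3 counts, the limit that a count of 0 allows, stood for 1.35 to 1.67 CPM (UMI counts scaled to the same library total in every sample). At this depth 78 of the 119 members had 0 UMIs in all 5 libraries, so their levels were below what the libraries could show. The other 41 members had at least 1 UMI, or 34.5% of the set against 52.4% of all rows of the table. By class, 22 of 74 C/D, 14 of 36 H/ACA and 5 of 9 scaRNA members had a UMI. In single libraries, 12 and 9 members were seen with PBS and 17, 25 and 24 with Sema3G. Every Sema3G library showed more members than either PBS library, whereas the share of all rows with a UMI was between 45.1% and 46.0% in the 5 libraries. Most members with UMIs had very few, and 5 of the 119 reached a mean of 1 CPM over the 5 libraries, the minimum for the test across genes.

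Snord89 and Snora81 rose with Sema3G. Snord89 had 17 and 50 UMIs in the PBS samples against 460, 1134 and 1191 in the Sema3G samples. Its level was 18.1 ± 12.3 CPM for PBS (SD, n = 2) against 439 ± 160 CPM for Sema3G (SD, n = 3). The lowest Sema3G library was 9.56-fold above the highest PBS library, although the PBS libraries differed 2.87-fold from each other and the Sema3G libraries by up to 2.15-fold. The log2 fold change (log2FC) was 4.62 (standard error, SE, 0.34; limma adjusted p = 4.30e-07, fitted on log2(CPM + 1) and adjusted over 10088 genes by the Benjamini-Hochberg method). On this scale the changes of weakly expressed genes come out too small. With 1 library left out the log2FC ranged from 3.91 without PBS replicate 1 to 5.33 without PBS replicate 2. With the library's share of Rn45s, the ribosomal RNA precursor, as a covariate, it was 1.14 and not called (limma adjusted p = 0.317), and with the log2 of that share it was 2.70 (limma adjusted p = 0.00242).

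Snora81, the most abundant H/ACA member, had 1 and 9 UMIs in the PBS samples against 47, 85 and 91 in the Sema3G samples. These counts correspond to 2.68 ± 3.02 CPM (SD, n = 2) and 35.5 ± 8.29 CPM (SD, n = 3). The groups did not overlap, and the lowest Sema3G library was 5.42-fold above the highest PBS library. The PBS libraries differed 8.77-fold, from 1 and 9 UMIs, which is a wider gap than among the Sema3G libraries (1.61-fold). The log2FC was 3.58 (SE 0.43, limma adjusted p = 0.000185), and it was 2.62 without PBS replicate 1 and 4.53 without PBS replicate 2. Among all tested genes the log2FC of Snord89 ranked 1 and that of Snora81 ranked 3 from the highest. With the Rn45s share as a covariate the log2FC of Snora81 turned to -0.10 (limma adjusted p = 0.985), and with its log2 it was 1.21 (limma adjusted p = 0.546). Both covariate fits have 2 residual degrees of freedom, and the covariate itself differs mostly between PBS and Sema3G. Since Snora81 overlaps an exon annotated to Eif4a2, how reads were assigned between them is uncertain.

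The other 3 tested members were not called. Scarna17, a scaRNA, had 2 and 0 UMIs in the PBS samples against 5, 8 and 7 in the Sema3G samples. All 3 Sema3G libraries lay above both PBS libraries, with a log2FC of 1.53 (SE 0.53, limma adjusted p = 0.130). The box C/D RNA Snord49b had 1 and 5 UMIs in the PBS samples against 5, 7 and 5 in the Sema3G samples. Its groups overlapped in CPM, since PBS replicate 2 (2.68 CPM) exceeded Sema3G replicate 3 (2.30 CPM), and the log2FC was 0.64 (SE 0.52, limma adjusted p = 0.476). Snord104, another C/D RNA, had 7 and 8 UMIs in the PBS samples against 6, 6 and 14 in the Sema3G samples, or 4.06 ± 0.309 (SD, n = 2) and 4.17 ± 2.01 CPM (SD, n = 3). Its log2FC was -0.04 (SE 0.45, limma adjusted p = 0.971), and its sign turned with the scaling. In Snord104 the spread among Sema3G libraries was larger than the difference between the groups.

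Among the 5 tested members, 2 were called higher and 0 lower, where 1.59% of all tested genes were called higher and 0.218% lower (1.8% in either direction). For Snord89, Snora81 and Scarna17 the groups did not overlap with Sema3G higher, and this was so for 11.9% of all tested genes. Scarna17 passed the minimum through its Sema3G libraries, so it had to differ, and nothing is read from the count of 3 against that share. The median log2FC of the 5, 1.53 against -0.22 over all genes, is a description for the same reason. On the recovered UMI counts, edgeR's quasi-likelihood test called 2.98% of genes higher and DESeq2 2.47%, and both called Snord89 (edgeR adjusted p = 0.000141) and Snora81 (edgeR adjusted p = 0.000990) among the members. Without a minimum level, all 41 members with a UMI could be tested by limma, and Snord89 and Snora81 were again the members called, against 0.813% of 12792 genes called higher.

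**Figure D1:**
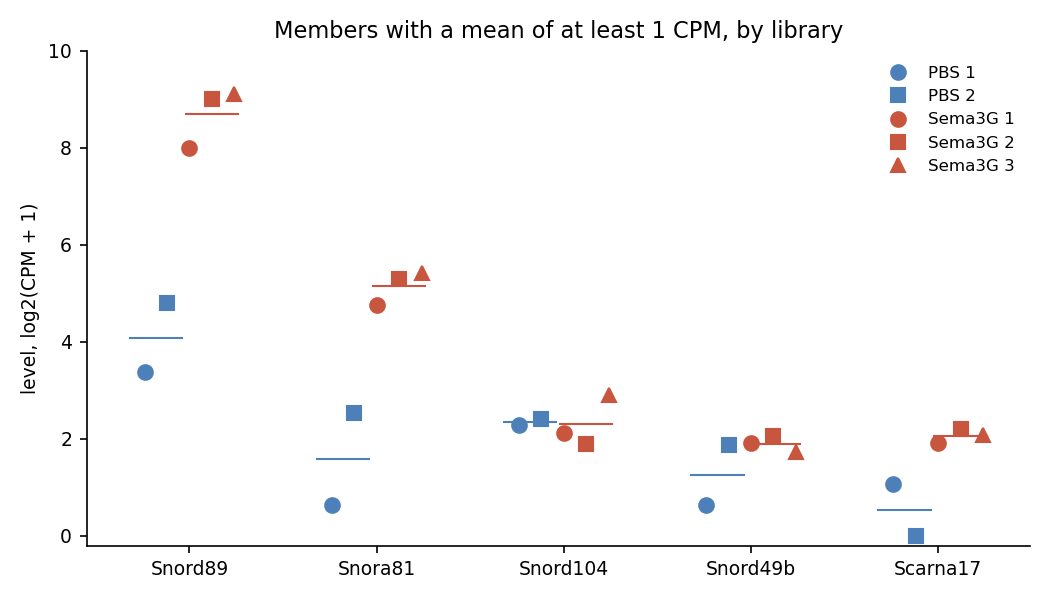
Level of the 5 tested members in each library as log2(CPM + 1) on the y axis, with PBS libraries in blue, Sema3G libraries in red and group means as lines. Snord89 and Snora81 lie above both PBS libraries in each of the 3 Sema3G libraries, while the groups overlap for Snord104 and Snord49b.

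Pooled over each class, the UMIs were higher with Sema3G, and most of the pooled UMIs came from a single member per class. The 74 C/D members together had 28 and 67 UMIs in the PBS samples against 484, 1164 and 1226 in the Sema3G samples. The pooled C/D level was 25.6 ± 14.5 CPM (SD, n = 2) for PBS and 453 ± 161 CPM (SD, n = 3) for Sema3G, and the groups did not overlap. Over all libraries Snord89 held 87.5% of the UMIs of the 119 members, with 48.6% and 64.9% for PBS and 85.0%, 89.1% and 89.2% for Sema3G. Without Snord89, the other 73 C/D members had 11 and 17 UMIs in the PBS samples against 24, 30 and 35 in the Sema3G samples. Their pooled level was 7.57 ± 2.16 CPM for PBS (SD, n = 2) against 14.3 ± 1.56 CPM for Sema3G (SD, n = 3), a ratio of 1.89, and the groups still did not overlap. The 95% exact Poisson interval of PBS replicate 2 (5.30 to 14.6 CPM) nevertheless reached into that of each Sema3G library, which began at 8.55, 9.13 and 11.2 CPM.

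The 36 H/ACA members had 3 and 10 UMIs in the PBS samples against 52, 97 and 98 in the Sema3G samples. Without Snora81 the remaining 35 had 2 and 1 UMIs in the PBS samples against 5, 12 and 7 in the Sema3G samples, or 0.817 ± 0.398 (SD, n = 2) and 3.81 ± 1.41 CPM (SD, n = 3). The groups did not overlap, but the 95% exact Poisson interval of PBS replicate 1 (0.133 to 3.97 CPM) reached into that of each Sema3G library, the lowest of which began at 0.903 CPM. These intervals cover counting error only. The 9 scaRNAs had 4 and 0 UMIs in the PBS samples against 5, 12 and 11 in the Sema3G samples, of which Scarna17 held 2 and 0 with PBS and 5, 8 and 7 with Sema3G. Without Scarna17 the 8 other scaRNAs had 2 and 0 UMIs in the PBS samples against 0, 4 and 4 in the Sema3G samples, and their groups overlapped.

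With Snord89 and Snora81 left out, the other 117 members had 17 and 18 UMIs in the PBS samples against 34, 54 and 53 in the Sema3G samples. Their pooled level was 9.49 ± 0.209 CPM for PBS (SD, n = 2) against 22.6 ± 3.17 CPM for Sema3G (SD, n = 3), a ratio of 2.38. The difference was thus seen outside the 2 called members, at a much smaller size than the 24.3-fold ratio of group means of Snord89 and the 13.2-fold ratio of Snora81. These ratios depended on the PBS library kept, and the ratio of Snord89 was 16.4 without PBS replicate 1 and 47.0 without PBS replicate 2. That of Snora81 was 7.36 without PBS replicate 1. Against PBS replicate 1 alone, which holds 1 UMI, the ratio of its summed levels was 65.6 with a 95% exact binomial interval from 11.7 to 2604 for counting error. No p is given for these sums, because they add up chosen members.

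**Figure D2:**
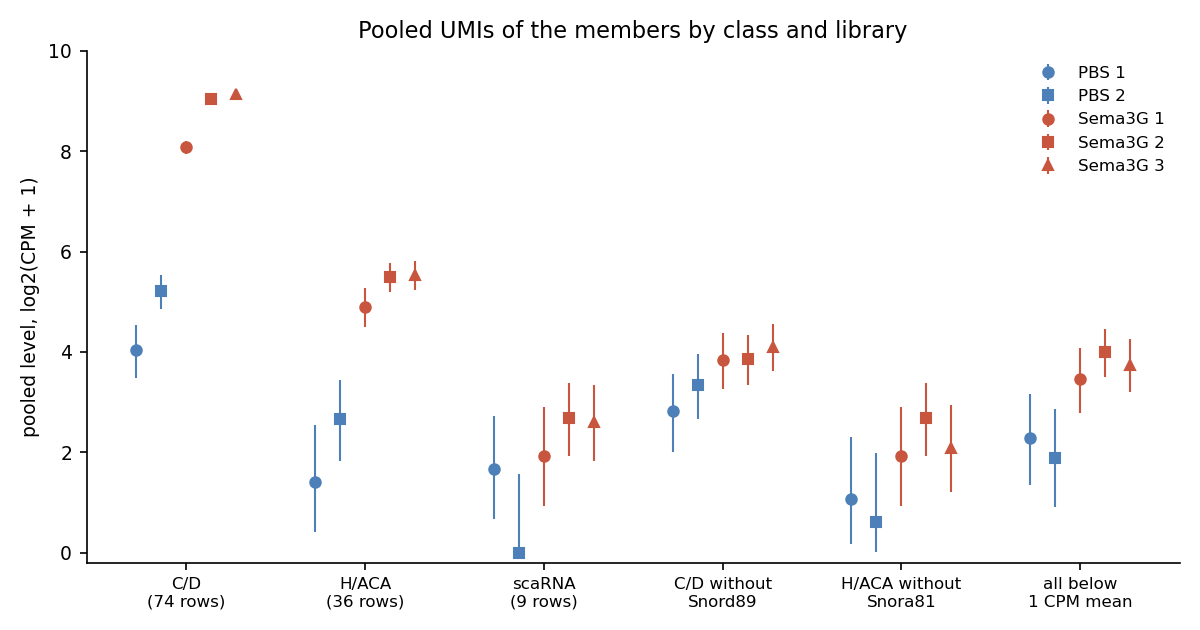
Pooled level of the members by class as log2(CPM + 1) on the y axis, by library, with PBS in blue and Sema3G in red and 95% exact Poisson intervals for counting error. Leaving out Snord89 lowers the C/D pool of the Sema3G libraries from 453 to 14.3 CPM on average, and the 3 Sema3G libraries stay above both PBS libraries.

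The 114 members under the minimum level were sparse and lay mostly in the Sema3G libraries. Of these, 36 had at least 1 UMI, and 16 had exactly 1 UMI in all. Together they had 7 and 5 UMIs in the PBS samples against 18, 33 and 27 in the Sema3G samples, or 3.26 ± 0.827 (SD, n = 2) and 12.4 ± 2.44 CPM (SD, n = 3). UMIs were found in Sema3G libraries only for 26 of the 36, in PBS libraries only for 3, and in both groups for 7. Of the 16 members with exactly 1 UMI, 13 had it in a Sema3G library, and so had 63.5% of 906 other rows with exactly 1 UMI. Of the 20 sparse members with more UMIs, 13 were seen with Sema3G only and 0 with PBS only, against 386 and 148 of 1928 other rows with 2 to 11 UMIs. Rows with fewer UMIs are more often seen in 1 group only. The members and the other rows were not matched on their number of UMIs within that range. Of the 90 UMIs of all 36 sparse members, 86.7% were in Sema3G libraries, which hold 62.6% of the library totals. Outside the set, 2834 rows had equally few UMIs (1 to 11 in all), and 60.1% of the UMIs of those rows were in Sema3G libraries. The ratio of group means was 3.82 for the 114 members and 0.904 for those rows.

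By number of UMIs, the first among these sparse members was Snord15a, a C/D RNA in an intron of the ribosomal protein gene Rps3, with no UMI in the PBS samples and 0, 8 and 3 in the Sema3G samples. Snord22, a C/D RNA of the noncoding host Snhg1, had no UMI in the PBS samples and 4, 2 and 2 in the Sema3G samples. Snora75 in Ncl, the gene of nucleolin, and Snord68 in Rpl13 each had no UMI in the PBS samples and 2, 2 and 1 in the Sema3G samples. These 3 RNAs, Snord22, Snora75 and Snord68, were the sparse members with a UMI in all 3 Sema3G libraries. How often equally sparse rows outside the set show this was not counted, so nothing is read from these 3.

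The pattern was not shared by every sparse member. Snora30, an H/ACA RNA in Srcap, had 1 and 1 UMIs in the PBS samples against 0, 4 and 0 in the Sema3G samples. Snord72 in Rpl37 had 1 and 1 UMIs in the PBS samples against 0, 1 and 1 in the Sema3G samples. Scarna9 had 1 and 0 UMIs in the PBS samples against 0, 1 and 2 in the Sema3G samples. Scarna2, Snora20 and Snord65 had 3 UMIs each, with 1 in a PBS library and 2 in Sema3G libraries, and so had Snord83b, which ties with them. Snord73a, also with 3 UMIs, had 0 and 0 in the PBS samples against 0, 1 and 2 in the Sema3G samples. With so few UMIs a difference in any 1 of these RNAs was not detectable at this depth.

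The most abundant other RNA without a poly(A) tail was also higher in every Sema3G library than in either PBS library. Rn45s, the ribosomal RNA precursor whose products are targets of these guides, had 18318 and 59596 UMIs in the PBS samples against 113530, 164006 and 170913 in the Sema3G samples. This was 1.01% and 3.19% of the library totals with PBS and between 6.31% and 7.88% with Sema3G, and its log2FC of 2.0 was not called (limma adjusted p = 0.111). Of 15 genes of other such RNAs that were looked up, Rn45s included, 10 had a row and 4 had any UMI. Rpph1, the RNA of ribonuclease P, had 1 and 1 UMIs in the PBS samples against 5, 7 and 4 in the Sema3G samples, a log2FC of 1.20 (limma adjusted p = 0.202). Like Scarna17 it reached the minimum level through its Sema3G libraries, so nothing is read from its groups lying apart. Rmrp, the RNA of ribonuclease MRP, had 0 and 0 against 0, 2 and 2 UMIs, and Vaultrc5, a vault RNA, 2 and 1 against 0, 2 and 0. The part that a library-wide capture of RNAs without a poly(A) tail has in the rise of the members was not tested.

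Set against Rn45s in the same library, the members differed among themselves. Per 1000 UMIs of Rn45s, Snord89 had 0.928 and 0.839 UMIs in the PBS samples and 4.05, 6.91 and 6.97 in the Sema3G samples. The PBS libraries thus had nearly the same ratio although their Rn45s shares differed 3.17-fold, and the mean ratio was 6.77-fold higher with Sema3G. Snora81 had 0.0546 and 0.151 UMIs per 1000 with PBS, from 1 and 9 UMIs, and 0.414, 0.518 and 0.532 with Sema3G, a 4.75-fold higher mean. The other 117 members together had 0.928 and 0.302 UMIs per 1000 with PBS and 0.299, 0.329 and 0.310 with Sema3G. For this remainder PBS replicate 2 lay within the range of the Sema3G libraries, and PBS replicate 1, which has the lowest Rn45s share, lay above them.

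**Figure D3:**
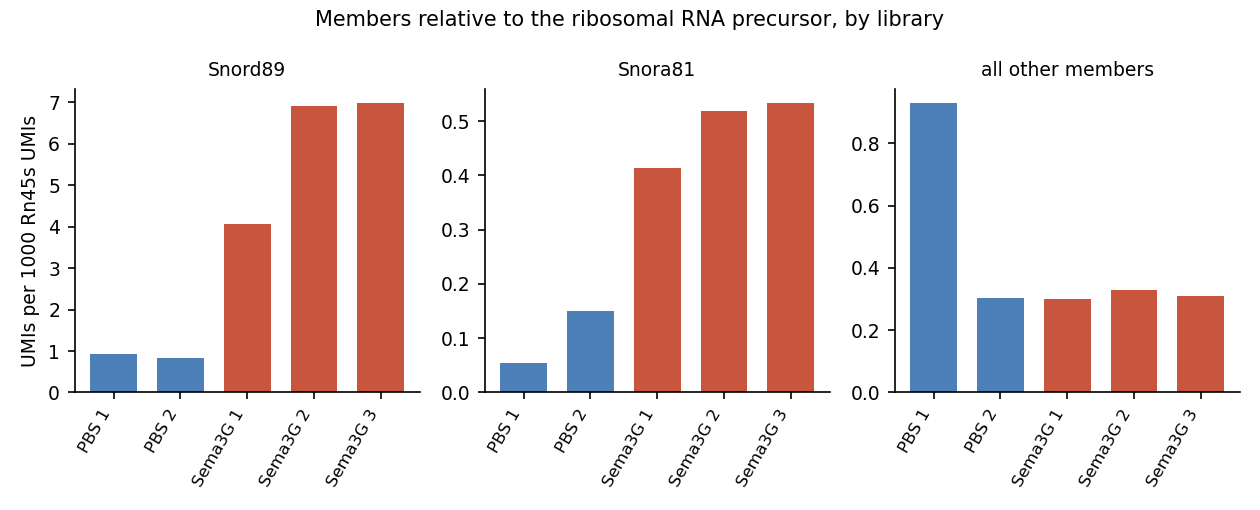
UMIs of Snord89, Snora81 and the other 117 members per 1000 UMIs of the ribosomal RNA precursor Rn45s in each library, with 1 bar per library, PBS in blue and Sema3G in red, and a separate y axis from 0 in each panel. Snord89 goes from 0.928 and 0.839 with PBS to between 4.05 and 6.97 with Sema3G, whereas the other members are near 0.3 in 4 libraries and at 0.928 in PBS replicate 1.

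The listed genes around the called members were not called themselves. Eif4a2, which contains Snora81, had 30 and 22 UMIs in the PBS samples against 32, 49 and 37 in the Sema3G samples, and its log2FC was 0.41 (SE 0.29, limma adjusted p = 0.413). In the Sema3G libraries Snora81 had more UMIs than Eif4a2 in all 3 samples, and in the PBS libraries it had fewer in both. Snord2, another C/D RNA inside Eif4a2, had 0 UMIs in all 5 libraries. For Snord89, RefSeq treats Gm15832 as a synonym of Rnf149, a ubiquitin ligase gene. Rnf149 was at 1999 ± 167 CPM for PBS (SD, n = 2) against 1646 ± 29.8 CPM for Sema3G (SD, n = 3) (log2FC -0.28, limma adjusted p = 0.478).

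The host of Snord49b, 2410006H16Rik, had 155 and 171 UMIs in the PBS samples against 125, 126 and 81 in the Sema3G samples. Its groups did not overlap, and its log2FC of -0.73 was not called (limma adjusted p = 0.114). It also holds Snord65, with 3 UMIs, and Snord49a, with 0. Of the 112 members inside a longer gene on the same strand, 104 had a host with a row of its own. Highly expressed hosts held members both with and without UMIs: of 23 members with a host of at least 100 CPM, 10 had a UMI and 13 were at 0. The hosts of the 69 members at 0 had a median of 19.0 CPM and reached 655 CPM (Eef2, the host of Snord37), and the hosts of the 35 members with a UMI had a median of 50.1 CPM and reached 559 CPM (Rpl13). Eif4a2, with 233 UMIs of Snora81 inside it, averaged 17.0 CPM.

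Of the 32 tested host genes of members with a UMI, 1 was called higher and 0 lower (limma), where 1.59% of all tested genes were called higher and 0.218% lower. It was Srcap, the host of Snora30 and a chromatin remodeling gene, which had 3 and 4 UMIs in the PBS samples against 9, 28 and 30 in the Sema3G samples (log2FC 1.89, limma adjusted p = 0.0395). Among the 70 tested hosts of all members, Eif3a (log2FC 0.78, limma adjusted p = 0.0400) and Eif4g1 (log2FC 0.86, limma adjusted p = 0.0322), genes of translation initiation factors, were called higher too, and the members inside them, Snora19 and Snord66, were at 0. These 3 hosts were named here after their values were seen. The median log2FC of the 32 hosts was -0.29, against -0.22 over all genes. At an unadjusted p under 0.05 there were 5 higher and 11 lower hosts, or 50% of the 32, against 21.1% of all tested genes. The hosts were not matched to all genes by level, here or below. Well counted hosts have smaller standard errors, such as 0.20 for Rps3 (412 CPM) against 0.53 for Rps12 (1.63 CPM). The balance of higher and lower hosts turned with the scaling, as it did over all genes. It was 8 higher and 6 lower hosts with TMM factors (1136 and 513 of all genes) and 8 higher and 1 lower with CPM over the listed rows less Rn45s (1373 and 229 of all genes), from 689 and 1436 of all genes without such scaling. With the latter CPM 3 of the 32 hosts were called higher, where 4.92% of all genes were. The 11 ribosomal protein genes among the hosts had log2FCs between -0.79 and -0.04 with a median of -0.50. None of them passed the adjusted p (lowest 0.0702 from limma), but 8 of the 11 were lower at an unadjusted p under 0.05, as were 14.2% of all tested genes. With TMM factors 5 of the 11 were lower at that level, against 5.09% of all tested genes, and their median was -0.30, against -0.04 over all genes. With CPM over the listed rows less Rn45s it was 1 of the 11, against 2.27%, and their median was -0.21, against 0.04 over all genes. Rps3, the host of Snord15a, had a log2FC of -0.58 (limma adjusted p = 0.130).

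**Figure D4:**
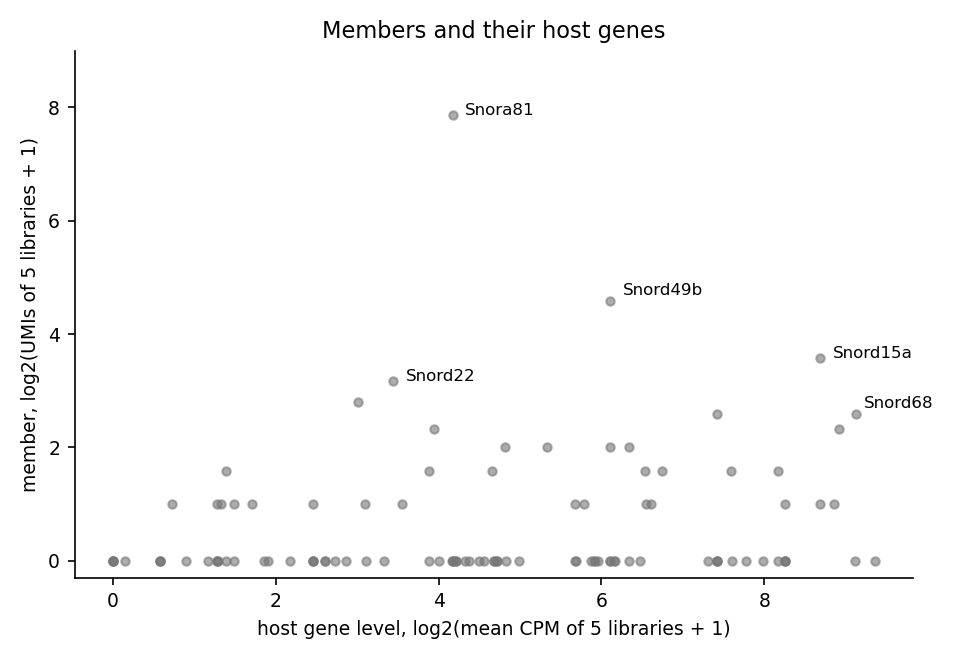
UMIs of each member over all 5 libraries on the y axis, as log2(UMIs + 1), against the mean level of its host gene on the x axis, as log2(CPM + 1), for the 104 members whose host has a row. Snora81 stands far above the others at a host level of 17.0 CPM, and members at 0 occur over the whole range of host levels up to 655 CPM.

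The members that were seen were compared with those at 0 by their annotated features. The median length was 126 nt for the 41 members with a UMI and 90.0 nt for the 77 annotated members at 0, but within class C/D it was 85.0 and 78.0 nt and within class H/ACA 130.5 and 132 nt. A run of at least 5 A was present in 2 of the 41 members with a UMI (Snord49b and Snord72) and in 7 of the 77 at 0. Overlap with an exon of another gene on the same strand was found for 14 of the 41 (34.1%) and for 40 of the 77 (51.9%). These are descriptions of small groups and no test was made.

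The genes of the proteins that bind, assemble or trim these RNAs all had UMIs. Of the 26 tested genes, 0 were called in either direction (limma), where 1.8% of all tested genes were called, so that few calls could be had among 26. At an unadjusted p under 0.05 there were 2 higher and 3 lower genes, or 19.2% of the 26, against 21.1% of all tested genes. Their median log2FC was 0.01, against -0.22 over all genes. Of the box C/D core, Nop56 was at 16.3 ± 1.83 CPM for PBS (SD, n = 2) against 12.1 ± 3.52 CPM for Sema3G (SD, n = 3), a log2FC of -0.43 (limma adjusted p = 0.433). Nop58, the second scaffold protein of this class, was at 25.5 ± 5.84 and 25.0 ± 6.28 CPM (log2FC -0.04, limma adjusted p = 0.953). Nhp2l1, which binds the kink-turn, had a log2FC of -0.38 (limma adjusted p = 0.674). Fbl, the methyltransferase fibrillarin, had 1 or 2 UMIs in each library and was below the minimum.

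Of the H/ACA core, Nop10 had the lowest adjusted p of all 26 genes. It was at 109 ± 1.62 CPM for PBS (SD, n = 2) against 67.5 ± 12.3 CPM for Sema3G (SD, n = 3), with no overlap, and its log2FC of -0.70 was not called (SE 0.20, limma adjusted p = 0.0835). Without Sema3G replicate 1 it was called, at -0.84 (limma adjusted p = 0.0213), and with the replicate number as a block at -0.64 (limma adjusted p = 0.0208). Those fits called 440 and 275 of 10088 genes lower, against 22 with all libraries and no block. The first keeps Sema3G replicates 2 and 3, the most alike pair of libraries, and the second has 1 residual degree of freedom. Nhp2 had a log2FC of -0.79 (limma adjusted p = 0.249). Dkc1, the pseudouridine synthase dyskerin, was at 10.9 ± 2.50 CPM for PBS (SD, n = 2) against 10.4 ± 3.18 CPM for Sema3G (SD, n = 3), with a log2FC of -0.08 (limma adjusted p = 0.921). Gar1 had one of 0.10 (limma adjusted p = 0.905).

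Among the other groups, the 10 assembly factors ranged from -0.71 (Naf1, which escorts dyskerin) to 1.42 (Ruvbl1, an ATPase of the assembly complex, limma adjusted p = 0.135). The 4 Cajal body genes ranged from -0.44 (Wrap53, which brings scaRNAs to the Cajal body) to 0.51 (Tgs1, a cap methyltransferase, limma adjusted p = 0.218). The 5 processing genes ranged from -0.67 (Exosc10, an exosome nuclease) to 0.53 (Papd5, a nuclear poly(A) polymerase, limma adjusted p = 0.298). Xrn2, a nuclear exonuclease, was at 94.5 ± 10.2 CPM for PBS (SD, n = 2) against 121 ± 2.19 CPM for Sema3G (SD, n = 3). Its log2FC of 0.35 was not called (limma adjusted p = 0.278). With CPM over the listed rows less Rn45s, Xrn2 (0.64, limma adjusted p = 0.0360) and Tgs1 (0.80, limma adjusted p = 0.0486) were called, where 4.92% of all tested genes were called higher.

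**Figure D5:**
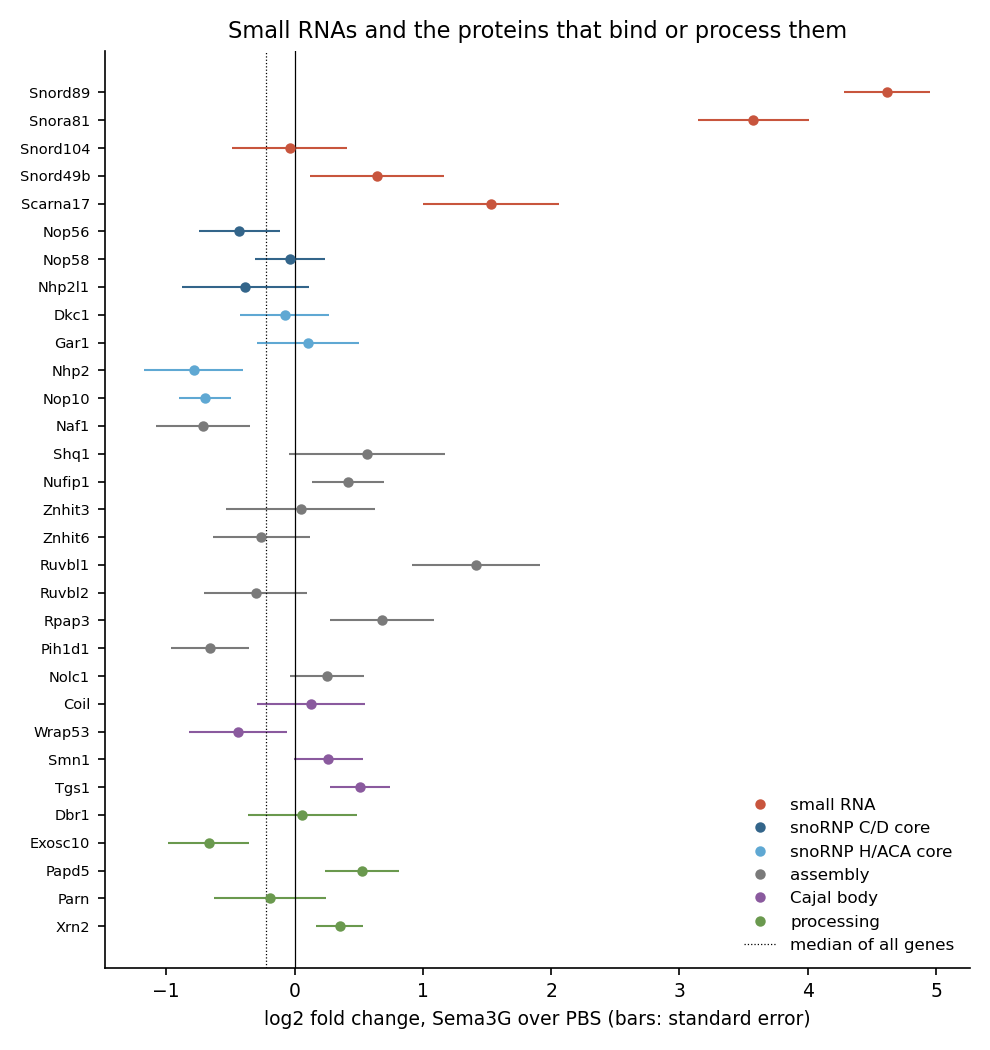
Log2FC of Sema3G over PBS on the x axis for the 5 tested small RNAs and 26 protein genes, with bars for the standard error from limma, a solid line at 0 and a dotted line at the median of all genes (-0.22). Snord89 (4.62) and Snora81 (3.58) stand apart from the protein genes, which lie between -0.79 and 1.42.

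All 6 macrophage markers had UMIs in the libraries, at 8423 to 11545 CPM in all with PBS and 8142 to 8439.6 CPM with Sema3G. The 5 T and B cell markers were at 0 throughout, and the 4 dendritic cell markers had 1 UMI in all. Of 5 neutrophil markers 3 had UMIs, nearly all on S100a8, with 115 to 167 CPM with PBS and 103 to 132 CPM with Sema3G, while Elane was at 0. The 4 stromal markers summed to between 6.96 and 21.4 CPM with PBS and between 6.77 and 16.6 CPM with Sema3G. The summed ranges of the groups overlapped for the macrophage, neutrophil and stromal lists. Of single macrophage markers, Adgre1 (993 ± 108 against 700.4 ± 178 CPM) and Csf1r (4442 ± 754 against 3497 ± 58.7 CPM) were lower in every Sema3G library than in either PBS library, Itgam (648 ± 78.2 against 745 ± 37.1 CPM) was higher in each (SD, n = 2 and n = 3), and the groups overlapped for the other 3. Over all tested genes 26.5% were lower and 11.9% higher without overlap. The part of cell types in the values above was not tested.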

How the data were processed

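Total RNA of 5 samples was made into 3′ end libraries with UMIs by the authors. Alignment to mm10, UMI counting in Strand NGS and normalization in EdgeR (3.12 per the labels) were theirs, and their gene annotation and filters are not stated in what was used here. The authors deposited CPM values, with the p-values, q-values and ranks of their own comparison, which were not used. Each CPM column was whole multiples of 1 step (100% of values within 0.01), which gave UMI counts, and the listed genes took 65.9% to 77.6% of the library totals. Depth limits rare RNAs, since 3 counts are 1.35 to 1.67 CPM.

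Genes averaging 1 CPM or more (10088) were compared between groups on log2(CPM + 1) in limma 3.58.1 under R 4.3.3, two-sided, with a trended prior variance, and called at a Benjamini-Hochberg adjusted p below 0.05. Alternatives were edgeR 4.0.16 and DESeq2 1.42.0 on recovered UMI counts, other pseudocounts, filters, scalings, covariates, the replicate block and leaving out each library. The limma, edgeR and DESeq2 fits by group alone were run on simulated counts, and the other alternatives were not. Positions and sequences came from GENCODE M21 and RefSeq (GRCm38), in which 118 of 119 members had a GENCODE entry. Hosts are longer genes that contain a member on its strand.

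Sema3G replicates 2 and 3 were the most alike pair (chi-square per degree of freedom 1.77, other pairs 6.57 to 29.6), above sampling noise, and were counted separately. The members, gene lists and tests were chosen with earlier results of these data known. Named are the tested members, the 10 with the most UMIs below the minimum, the core proteins and the hosts of tested members. Other RNAs, hosts and proteins outside the core were named after their values were seen. No sequence of Scarna17 is shown.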

Additional observations from a re-analysis of the deposited data

How the results depend on the processing

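The scaling moved the median log2 fold change of all genes from -0.22 to -0.04 with TMM factors and 0.04 with CPM over the listed rows less Rn45s. Where neither fewer samples nor fewer genes account for a change below, the cause was not tested. Snord89 kept its direction under all 16 alternatives and was called under 15, and Snora81 kept it under 15 and was called under 14. The exceptions are the fits with Rn45s as a covariate, which have 2 residual degrees of freedom and in which 89.5% of the variance of the share lies between the groups, so that a lost call says little. There Snord89 was at 1.14 (adjusted p = 0.317 from limma) and Snora81 at -0.10 (adjusted p = 0.985), with 0 members called. With the log2 of the share (76.9% of its variance lies between the groups), added after seeing the data, 1 member was called, Snord89 at 2.70, and Snora81 was at 1.21 (adjusted p = 0.546). Scarna17 was called under 0 of 15 (DESeq2 gave it, Snord104 and Snord49b no adjusted p), with log2 fold changes from 0.57 to 3.25, and Snord49b turned to -1.10 and -0.77 with these covariates. Snord104 turned to 0.13 with TMM factors, 0.20 with CPM over the listed rows, 0.25 with edgeR and 0.26 with DESeq2, and with 1 library left out ranged from -0.34 to 0.17, being 0.02, 0.06 and 0.17 without PBS replicate 2, Sema3G replicate 1 and Sema3G replicate 2.

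With a minimum mean of 5 CPM, these 3 members could not be tested. The number of genes called, 182 (160 higher and 22 lower), was 108 with no filter, 325 with TMM factors (322 higher and 3 lower), 498 with CPM over the listed rows (496 higher and 2 lower), 304 with edgeR, 42 with the log2 share of Rn45s (28 higher and 14 lower) and 573 with the replicate block (298 higher and 275 lower). Leaving out single libraries gave 27 to 710 genes. The low counts came without Sema3G replicate 2 (27), Sema3G replicate 3 (32) or PBS replicate 1 (99), the highest without Sema3G replicate 1 (270 higher and 440 lower), and 2 members were called each time. Of the 26 protein genes, 2 were called with CPM over the listed rows (Tgs1 and Xrn2), 1 with the replicate block (Nop10), and 0 to 1 with 1 library left out. The replicate numbers are shared by the groups, but the labels do not say that they pair the samples, and deviations of same-numbered samples correlated by 0.17 and 0.11. Sema3G replicate 3 has no PBS sample of its number. The block therefore gave the same log2 fold changes as leaving that library out (4.42 for Snord89 and 3.44 for Snora81). The block leaves 1 residual degree of freedom, and Snord89 and Snora81 were called with it, which is no separate check.

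The difference of the pooled level of all members, 4.02 on the log2(CPM + 1) scale, was 2.17 without Snord89 and 1.16 without Snord89 and Snora81, and ranged from 3.49 to 4.55 with 1 library left out. Without these members, that of class C/D went from 4.13 to 0.86 and that of H/ACA from 3.27 to 1.38. With 1 library left out, C/D ranged from 3.55 to 4.72, H/ACA from 2.64 to 3.90 and scaRNA from 0.72 to 2.40 around 1.56, the extremes being without PBS replicates 1 and 2.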
